A study of Drosophila melanogaster with 70 samples.

Results

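Mitochondrial ribosomal proteins build the ribosome of the mitochondrion, which translates the few messenger RNAs that the mitochondrial genome itself encodes. The products of that translation are core subunits of the respiratory chain and of ATP synthase. The RNA of this ribosome is mitochondrial, whereas its proteins are encoded in the nucleus, made in the cytoplasm and imported. Their genes are mostly short, are expressed in nearly all tissues and lie scattered among other genes. Domain boundaries are the positions in a contact map across which DNA on either side meets less often than within a domain.

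The genes described here are the protein-coding genes of the Drosophila melanogaster annotation whose symbol starts with mRpL or mRpS followed by a digit. There were 73 of them among 13842 protein-coding genes on chromosome arms 2L, 2R, 3L, 3R and X, with 47 of the large subunit (mRpL) and 26 of the small subunit (mRpS). They were spread over all 5 arms, with 12 on 2L, 12 on 2R, 17 on 3L, 21 on 3R and 11 on X. Symbols place 2 genes differently from the human ribosome, where the proteins called S18A and S30 are part of the large subunit, and the symbols were followed. A pair of genes with other symbols, tko and bonsai, which encode the small subunit proteins S12 and S15, was kept apart.

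Boundaries came from in situ Hi-C, a method that joins and then sequences DNA fragments that are near each other inside intact nuclei. Maternal RNAi was driven with mat-a-tubGal4, a driver active in the female germ line, so it was the mothers' supply to the egg that was targeted, and the mothers were crossed to their siblings. At stage 5, in the middle of nuclear cycle 14, there were 3 libraries of embryos of control RNAi mothers and 2 of embryos of mof RNAi mothers, and these embryos were not sexed. The stage 15 embryos, aged 14 to 16 h from laying, gave 8 libraries in 4 groups, male and female with control RNAi and male and female with mof RNAi, all in a Sxl-GFP background and sorted by GFP, which was positive in females. Each library was made from 50 to 100 embryos staged by hand, so all cell types of the embryo were mixed. MOF is the acetyltransferase of the MSL and NSL complexes that modifies histone H4. The strain labels of the mof RNAi libraries named control RNAi mothers but gave the mof RNAi stock, so groups followed the titles. The labels of the stage 5 mof RNAi libraries also named a boundary list identical to the control list, and the mof RNAi list used here was tied to them by its name alone, which bears on every mof RNAi value. The boundary lists hold no expression values, so neither the depletion of mof nor any stage marker was checked in them.

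Each condition had 1 boundary list on bins of 2.5 kb of dm6, with 2591 boundaries at stage 5 in control, 2499 at stage 5 after mof RNAi and 2785 at stage 15. The stage 15 list was named by control and mof RNAi libraries of both sexes alike, so it is neither a control list nor a list of 1 sex. The lists give no read counts and depth is unknown. A single list stands for each condition, so differences between conditions have no replicate spread and no p-value. Intervals on shares are 95% Wilson intervals, which treat genes as independent and cover counting error only. A gene was counted at a boundary when either of its annotated ends lay within 2.5 kb of the midpoint of a boundary interval.

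About 50% of the mitochondrial ribosomal protein genes had a boundary at a gene end. At stage 5 in control, 36 of the 73 genes were at a boundary, which is 49.3% (38.2% to 60.5%), and 31.6% of all protein-coding genes were. After mof RNAi the count was 39 genes, or 53.4% (42.1% to 64.4%), against 29.5% of all protein-coding genes. At stage 15 it was again 39 genes, or 53.4%, beside 34.5% of all protein-coding genes. In each list the share of all genes lay below the lower end of the interval of the mitochondrial ribosomal protein genes. Both annotated ends were within the window of the same boundary for 28 of the 36 genes in the control list.

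The median distance from a gene end to the nearest boundary midpoint was 3.29 kb in the control list, with quartiles of 0.6 and 7.61 kb. The mof RNAi list gave 2.14 kb (quartiles 0.6 and 8.71 kb) and the stage 15 list 2.28 kb (quartiles 0.559 and 6.07 kb). Over all protein-coding genes the medians were 6.17, 6.83 and 5.36 kb in the same order. The mitochondrial ribosomal protein genes were thus nearer to a boundary than the median gene in each list, while their own quartiles spanned more than a 10-fold range of distance.

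**Figure D1:**
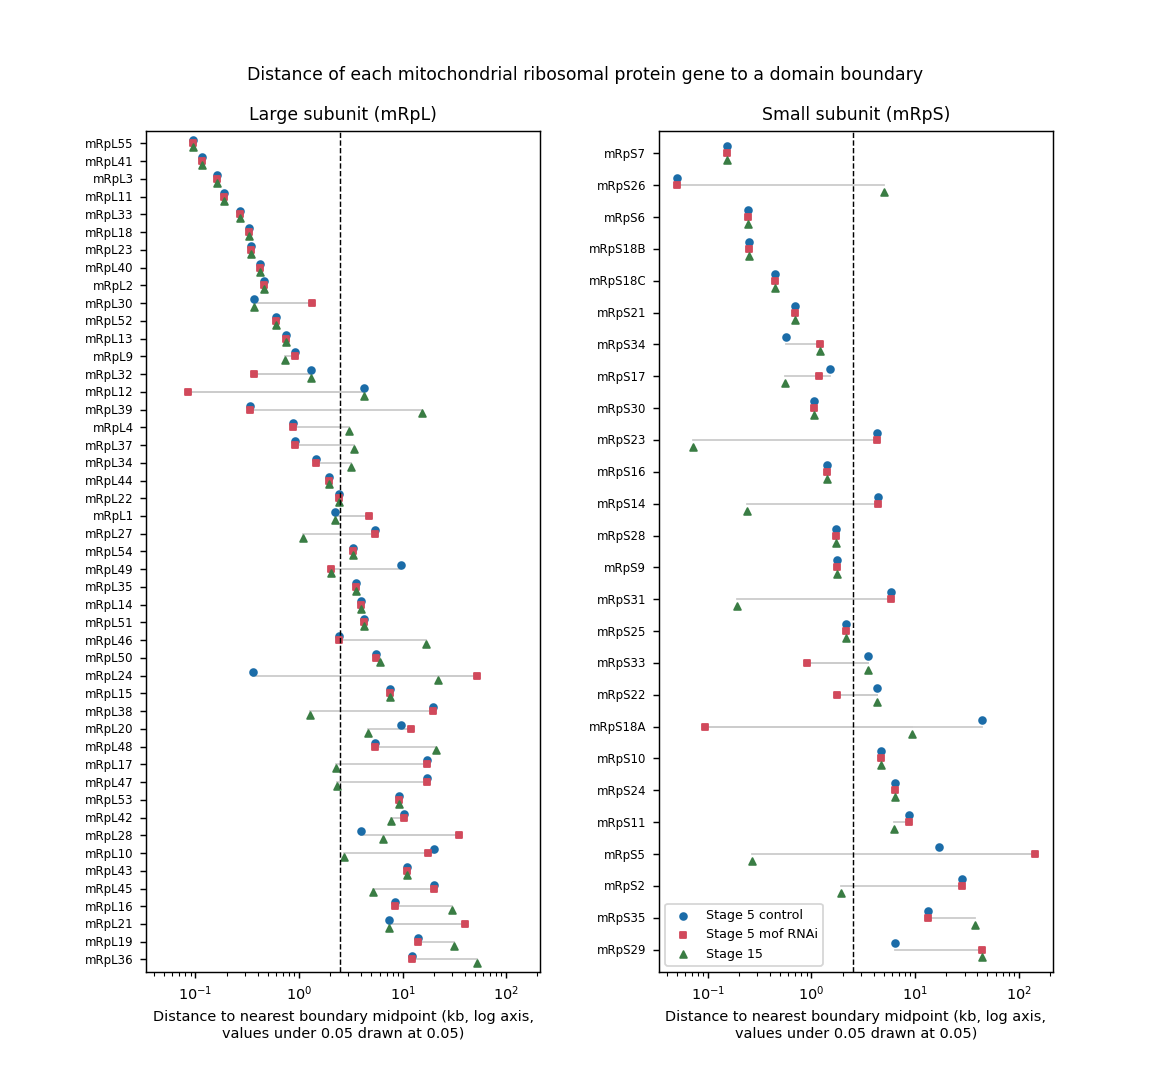
Distance in kb (log axis) from the nearer annotated end of each of the 73 mitochondrial ribosomal protein genes to the nearest boundary midpoint, for stage 5 control (circles), stage 5 mof RNAi (squares) and stage 15 (triangles), with large and small subunit genes in separate panels ordered from near to far. The dashed line marks 2.5 kb, grey lines join the values of a gene, and most genes near the top have the same value in all 3 lists, whereas mRpS18A, mRpL24 and mRpS5 span wide ranges.

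The choice of 2.5 kb fell in a gap of the distances at stage 5. Just inside it, the nearest gene ends were 2.408 kb away at mRpL22 and 2.439 kb at mRpL46 in both stage 5 lists. Just outside lay mRpL54 at 3.289 kb and mRpL35 at 3.527 kb. At stage 15 the genes just inside were mRpL47 at 2.322 kb and mRpL22 at 2.408 kb, and those just outside were mRpL10 at 2.718 kb and mRpL4 at 3.059 kb.

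Other genes of mitochondrial gene expression and other housekeeping complexes gave a mixed picture. The cytoplasmic ribosomal protein genes, which encode the ribosome of the cytosol, were at a boundary more often, in 58, 57 and 55 of 91 genes (63.7%, 62.6% and 60.4% in control, mof RNAi and stage 15). Respiratory chain and ATP synthase subunits were at a boundary in 35, 35 and 38 of 82 genes (42.7%, 42.7% and 46.3%). Proteasome subunits stood at 19, 17 and 17 of 48 genes (39.6%, 35.4% and 35.4%). The intervals of these lists overlapped that of the mitochondrial ribosomal protein genes in every list of boundaries.

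The smaller lists were too short to place. Of 9 mitochondrial translation factors 6 were at a boundary in each list. Of 16 mitochondrial aminoacyl-tRNA synthetases, which charge the tRNAs of the organelle, 4, 5 and 4 were. Of 11 genes of mitochondrial DNA expression and upkeep the counts were 6, 5 and 7. Both tko and bonsai were at a boundary in all 3 lists.

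**Figure D2:**
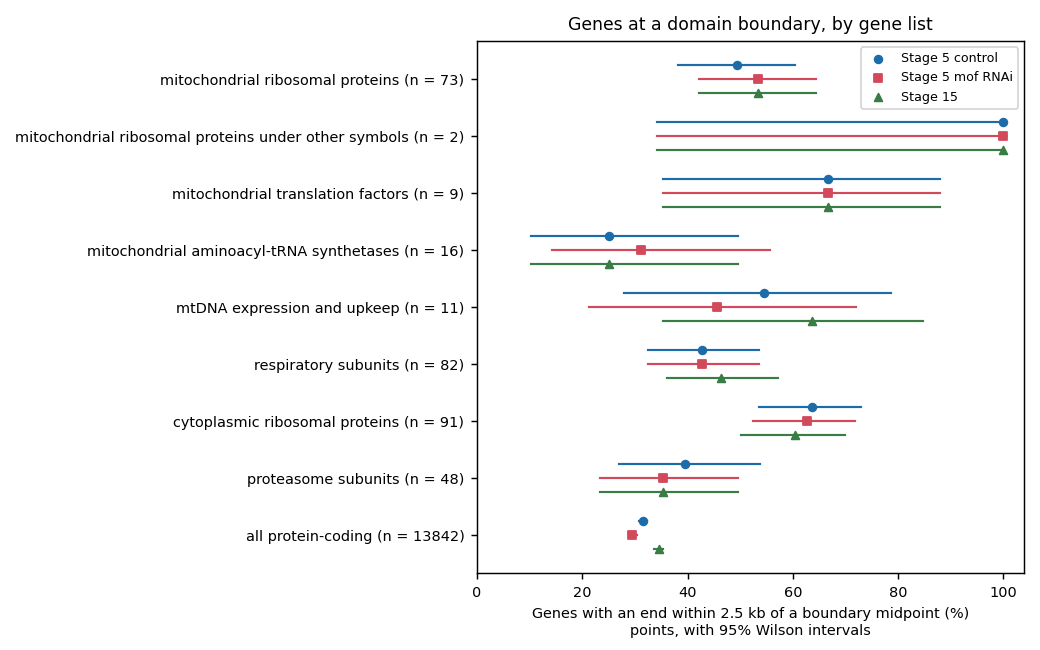
Share of genes (%) with an end within 2.5 kb of a boundary midpoint, for the mitochondrial ribosomal protein genes, 7 other gene lists and all protein-coding genes, in stage 5 control (circles), stage 5 mof RNAi (squares) and stage 15 (triangles). Horizontal lines are 95% Wilson intervals, and the mitochondrial ribosomal protein genes stand at 49.3%, 53.4% and 53.4%, below the cytoplasmic ribosomal protein genes at 63.7%, 62.6% and 60.4%.

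**Figure D3:**
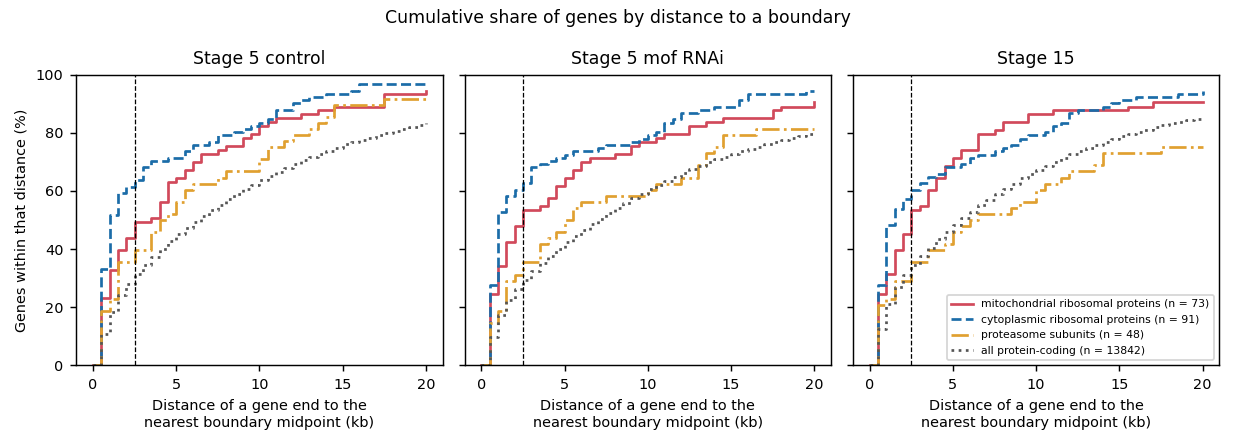
Cumulative share of genes (%) against the distance in kb from a gene end to the nearest boundary midpoint, with 1 panel per boundary list, in steps of 0.5 kb up to 20 kb. Within 10 kb of a boundary lay 82.2%, 76.7% and 86.3% of mitochondrial ribosomal protein genes (control, mof RNAi, stage 15) and 63.6%, 60.5% and 67.2% of all protein-coding genes, and the dashed line marks 2.5 kb.

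Counted by presence in the lists, 28 of the 73 genes (38.4%, 28.1% to 49.8%) were at a boundary in all 3, and 21% of all protein-coding genes were. A further 23 genes were at a boundary in none of the lists, beside 55.9% of all protein-coding genes. The other genes were split among the remaining combinations. There were 6 genes in both stage 5 lists but not at stage 15, 9 at stage 15 alone, 4 after mof RNAi alone, and 1 gene each in control alone, in control with stage 15, and in mof RNAi with stage 15.

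Among the 28 genes in all 3 lists, the boundary interval was the same in all 3 lists for 23 and in both stage 5 lists for 24. The lists share bins of 2.5 kb, so a shift smaller than 1 bin could not be seen. These genes were also grouped by having a boundary near in every list. The same share among all protein-coding genes at a boundary in all 3 lists is not given here. The 10 genes of this group whose boundaries had the lowest mean score percentile are described first. The score is the authors' own, with no stated scale, and it was used by rank within a list, rank 1 being the most negative.

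mRpS16, a protein of the body of the small subunit, lay on 2R from 14172986 to 14173596. The same boundary, 14173751 to 14176250, was called 1.4 kb from it in all 3 lists and ranked 83 of 2591 in control, 96 of 2499 after mof RNAi and 415 of 2785 at stage 15. Beside it lay ReepB and cg, which encodes the zinc finger protein Combgap.

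mRpS18B lay on 2L from 20096329 to 20097253, with Kua and nesd at the same boundary, 20096251 to 20098750. The midpoint was 0.247 kb from the gene end in all 3 lists. The boundary ranked 341 in control, 502 after mof RNAi and 19 at stage 15, the most negative of any boundary at a mitochondrial ribosomal protein gene in that last list.

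mRpS9, part of the head of the small subunit, was the longest of the genes at 13.4 kb, on 3R from 7889277 to 7902667. Its boundary lay 1.78 kb away and ranked 295, 262 and 436 in control, mof RNAi and stage 15. ArgRS-m, the mitochondrial arginyl-tRNA synthetase, was at the same boundary, so a pair of genes of mitochondrial translation shared it.

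Also among the 10 were 4 large subunit genes of proteins at the core or the exit tunnel. For mRpL22, at the exit tunnel, the distance was 2.41 kb and the ranks were 286, 239 and 723. For mRpL2, at the peptidyl transferase centre, they were 0.459 kb and 361, 592 and 547. For mRpL23, at the tunnel exit, they were 0.344 kb and 621, 629 and 474. For mRpL3, near the peptidyl transferase centre, they were 0.163 kb and 657, 579 and 782, and Polr3A, the largest subunit of RNA polymerase III, was at the same boundary. Each of these 4 distances was the same in all 3 lists.

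mRpL13 had a boundary 0.752 kb away with ranks 395, 557 and 405, shared with tup, which encodes the LIM homeodomain protein Tailup. mRpS21 had one 0.691 kb away with ranks 627, 400 and 423. mRpL55 had one 0.095 kb away with ranks 746, 631 and 657, and ATPsynD, a subunit of ATP synthase, was at the same boundary. None of the 10 boundaries moved between the lists.

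Genes of development, of the cell cycle and of other functions were also among the neighbours at boundaries called in all 3 lists. These examples were chosen after their values were seen, and such neighbours were not counted. mRpS7, part of the head of the small subunit, had a boundary 0.152 kb away with da, the bHLH partner Daughterless, and Cdk1, the mitotic kinase. mRpL40 shared its boundary at 0.418 kb with pros, which encodes the homeodomain protein Prospero. mRpL33 shared its boundary at 0.269 kb with norpA, the phospholipase C of phototransduction. mRpL44 shared its boundary at 1.96 kb with RpL35A, a protein of the cytoplasmic ribosome.

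Of the 36 genes at a boundary in control, 34 were also at a boundary after mof RNAi, which is 94.4% (81.9% to 98.5%), and among all protein-coding genes at a control boundary 83.9% were. The share of all genes lay inside the interval. Read from the other side, 34 of the 39 genes of the mof RNAi list were at a boundary in control (87.2%, 73.3% to 94.4%), and among all protein-coding genes at a mof RNAi boundary 89.6% were. Within a list, every boundary at a mitochondrial ribosomal protein gene was a different one, so the 36 and 39 genes were at 36 and 39 boundaries. Of the 36 control boundaries at these genes, 30 had the same midpoint in the mof RNAi list. Another 4 had a partner within 2.5 kb, together 94.4%, beside 78.7% of all control boundaries. The latter were not limited to boundaries at gene ends, so the sets are not alike. The control boundaries with a partner were also not exactly those of the 34 genes. mRpS17 was at a boundary in both lists, but the partner of its control boundary was 3.44 kb away. mRpL1 was not at a boundary after mof RNAi, although its control boundary had a partner within 2.5 kb.

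The 7 genes whose count differed between the stage 5 lists did so through shifts of 1 or a few bins, through an added boundary or through a lost one. mRpL1 and mRpS22 differed by 1 bin. mRpL1, a protein of the stalk of the large subunit, was 2.23 kb from a boundary in control and at stage 15 and 4.73 kb from one after mof RNAi. That boundary was among the most negative of its list, at ranks 54 and 66 in the stage 5 lists and 496 at stage 15, and moved from 8303751 to 8306250 on 3R to the next bin. mRpS22, a protein found only in mitochondrial ribosomes, was 4.25 kb away in control and at stage 15 and 1.75 kb away after mof RNAi, with ranks 105, 371 and 136. RpL4, of the cytoplasmic ribosome, was at that boundary in control.

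mRpL12 and mRpS33 differed by a shift of 5 kb. mRpL12, the protein of the stalk that contacts translation factors, was 4.29 kb from a boundary in control and at stage 15 and 0.084 kb from one after mof RNAi. mRpS33, a mitochondrion-specific protein of the small subunit, was 3.54 kb away in control and at stage 15 and 0.903 kb away after mof RNAi. For both genes the stage 15 boundary was the control one, and the mof RNAi boundary ranked 1802 at mRpL12 and 868 at mRpS33.

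mRpL49 and mRpS18A had an added boundary. At mRpL49, a mitochondrion-specific protein of the large subunit, the nearest boundary was 9.61 kb away in control and 2.06 kb away in the other lists, with a rank of 1286 after mof RNAi and 1095 at stage 15. At mRpS18A the distances were 44.4 kb in control, 0.093 kb after mof RNAi and 9.42 kb at stage 15. The mof RNAi boundary there ranked 2418 of 2499 and had a positive score, and the control boundary 44.4 kb away was called after mof RNAi too. The control domain around mRpS18A had 7 bins left out of the map by the authors and the mof RNAi domain 1. Around mRpL49 the control domain had 3 such bins and the mof RNAi domain 0. The part of these bins in either result was not tested.

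mRpL24, a protein at the exit tunnel, was the only one of the 36 genes whose control boundary had no counterpart within 10 kb in the mof RNAi list. It lay on 2L from 4944256 to 4945361, with the control boundary at 4943751 to 4946250, 0.361 kb from the gene end and at rank 1679. The nearest boundary was 51.8 kb away after mof RNAi and 22.1 kb away at stage 15. mRpL28, which lay 28.6 kb further along 2L, was 3.98 kb from a boundary in control, 34.7 kb after mof RNAi and 6.48 kb at stage 15. The nearest stage 15 boundary of both genes was the same one, and they were the only pair of that kind among the 73 genes. In both stage 5 lists the domain that held mRpL24 had 3 left-out bins, and their part in the result was not tested.

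**Figure D4:**
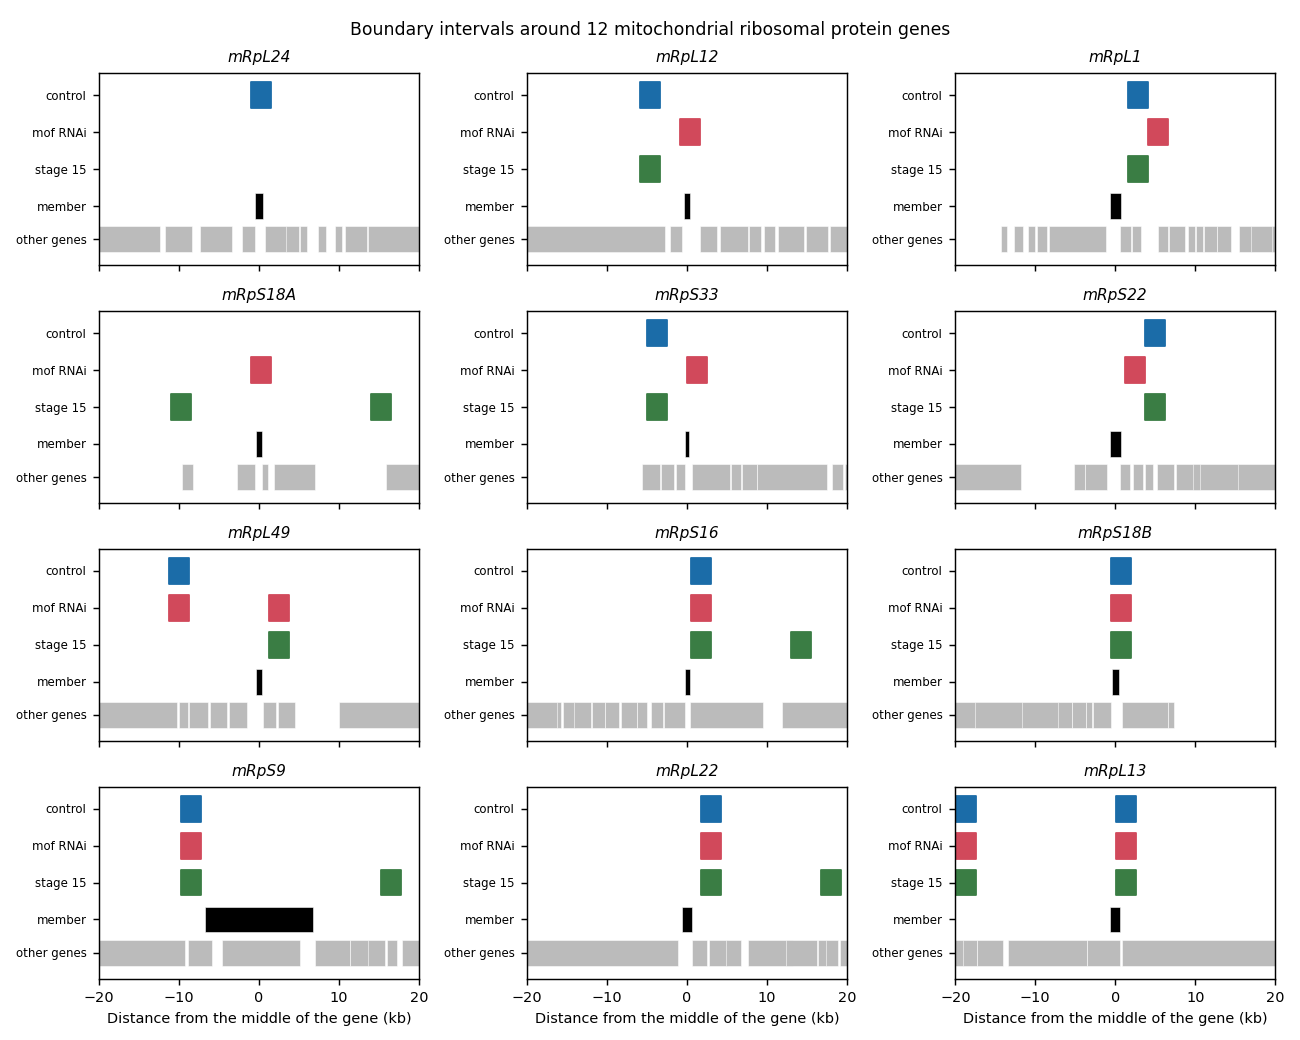
Boundary intervals called in stage 5 control, stage 5 mof RNAi and stage 15 within 20 kb of the middle of 12 mitochondrial ribosomal protein genes, with the gene itself in black and other protein-coding genes in grey, against distance in kb. The first 7 panels are the genes that differed between the stage 5 lists, and mRpL1 and mRpS22 show the shift of 1 bin, whereas the last 5 panels, from mRpS16 to mRpL13, show the same interval in all 3 lists.

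Of the 36 genes at a boundary in control, 29 were also at one at stage 15, which is 80.6% (65% to 90.2%), and among all protein-coding genes at a control boundary 75.5% were. Read from stage 15, 29 of the 39 genes were at a boundary in control (74.4%, 58.9% to 85.4%), and of all protein-coding genes in that list's windows 69% were. Both shares of all genes lay inside the intervals. Of the 36 control boundaries at these genes, 30 had a partner within 2.5 kb at stage 15 (83.3%, 68.1% to 92.1%), beside 61.7% of all control boundaries. This interval lay above the share of the list, but the list was not limited to boundaries at gene ends. Its scores were also less often negative, in 77% beside 97.2% of the 36 boundaries. In the like comparison, among genes at control boundaries, the share of all genes lay inside the interval, as given above.

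The 17 genes whose count differed between control and stage 15 comprised 10 that were at a boundary at stage 15 and 7 that were at one in control. Among the 10 with the largest change in distance, 7 were nearer to a boundary at stage 15. mRpS2, of the small subunit, was 28.2 kb from a boundary in both stage 5 lists and 1.94 kb from one at stage 15. mRpL38 was 19.6 kb away in both stage 5 lists and 1.29 kb away at stage 15. mRpL17 and mRpL47 were each 17.3 kb away in both stage 5 lists, and 2.28 and 2.32 kb away at stage 15. At mRpL47 the stage 15 boundary also held Ras85D, the Drosophila Ras oncogene homologue.

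For the 10 genes at a boundary at stage 15 but not in control, the stage 15 boundaries ranked 23 and 38 of 2785 at 2 and from 350 to 1426 at the other 8. mRpS23 was 4.25 kb from a boundary in both stage 5 lists and 0.072 kb from one of rank 23 at stage 15, which it shared with Polr2C, a subunit of RNA polymerase II, and PolG2, the accessory subunit of the mitochondrial DNA polymerase. mRpL27 was 5.36 kb away in both stage 5 lists and 1.09 kb away from a boundary of rank 38 at stage 15. That boundary also held RpL27A, of the cytoplasmic ribosome, and ND-B8, of respiratory complex I. mRpS31 was 5.9 kb away in both stage 5 lists and 0.193 kb away at stage 15, from a boundary of rank 773, beside mib1, a ubiquitin ligase of Notch signalling. mRpS14 was 4.38 kb away in both stage 5 lists and 0.238 kb away at stage 15, from a boundary of rank 1193.

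mRpS5, at the channel through which messenger RNA enters, stood apart from the rest. It lay on 3L from 24537236 to 24543534, and its nearest protein-coding neighbour, nvd, was 135580 bp away, whereas the other 72 genes had a neighbour within 500 bp. Its distance was 17.2 kb in control, 144 kb after mof RNAi and 0.264 kb at stage 15. Its stage 5 domains had 52 bins left out in control and 80 after mof RNAi, and its stage 15 domain had 0. Of the 73 genes, 19 lay in a control domain with left-out bins, 20 in such a mof RNAi domain and none in such a stage 15 domain. The stage 5 lists thus differ from the stage 15 list in this. Such bins were also present at mRpS2 (3 in control, 0 after mof RNAi) and mRpS23 (4 in each stage 5 list). Their part in any of these differences was not tested.

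The change in the other direction was seen at mRpL39, mRpL46 and mRpL24. mRpL39, a mitochondrion-specific protein of the large subunit, was 0.334 kb from a boundary in both stage 5 lists and 15.3 kb from one at stage 15. Its stage 5 boundary also held Prosbeta2, a catalytic subunit of the proteasome. mRpL46 was 2.44 kb away in both stage 5 lists and 16.7 kb away at stage 15. Smaller steps took 4 more genes out of the window, namely mRpS26 (0.001 kb to 5.0 kb), mRpL37 (0.908 to 3.41 kb), mRpL4 (0.868 to 3.06 kb) and mRpL34 (1.45 to 3.16 kb). For mRpL4, part of the exit tunnel wall, the stage 5 boundary had ranks of 41 and 42 and the one at stage 15 a rank of 397.

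The scores of the boundaries at these genes were mostly negative, in 35 of 36 in control, 35 of 39 after mof RNAi and 39 of 39 at stage 15. In the whole lists the shares with a negative score were 77%, 76.6% and 87%. The whole lists were not limited to boundaries at gene ends, so these sets are not alike. The share for all protein-coding genes at boundaries is not given here. As a percentile within the list, where low means more negative, the median was 39.2 in control, 42 after mof RNAi and 27.7 at stage 15. The medians over all protein-coding genes at boundaries were 37.6, 37.9 and 40.9, so the 2 stage 5 medians lay close to those of all genes and the stage 15 median below. Percentiles ran from 1.56 to 77.9 in control, from 1.66 to 96.7 after mof RNAi and from 0.664 to 72.3 at stage 15. The lowest 10% of scores held 3, 4 and 3 of these boundaries. The same share over all protein-coding genes at boundaries is not given here, so these counts are a description only. The lower 50% held 25 of 36, 22 of 39 and 31 of 39. Over the whole annotation, 2860 of 4368, 2661 of 4086 and 2951 of 4776 boundary genes had a boundary in that lower 50%. These are also more than 50%, so 50% is not the share to compare with. Beside them the mitochondrial ribosomal protein genes had a higher share in control and at stage 15 and a lower one after mof RNAi. No interval is given for these shares.

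**Figure D5:**
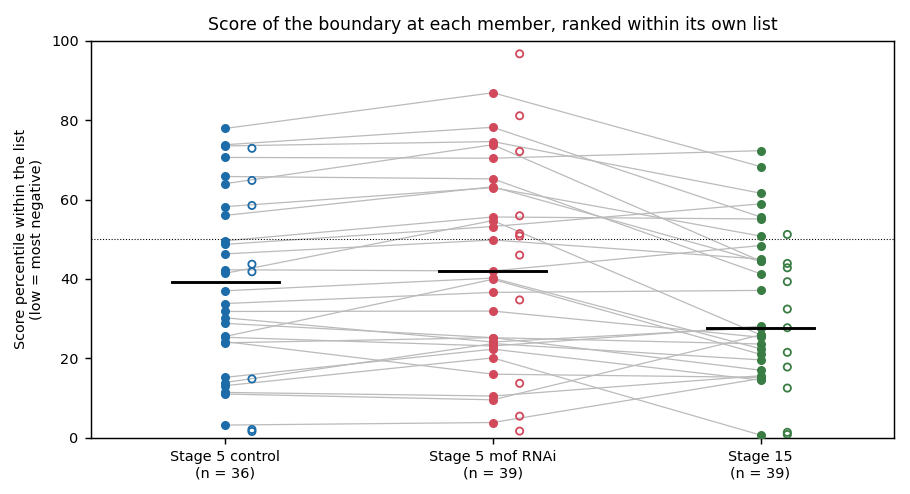
Percentile of the deposited score within its own list (low is most negative) for the boundary at each mitochondrial ribosomal protein gene, in stage 5 control (36 genes), stage 5 mof RNAi (39) and stage 15 (39). Filled circles joined by grey lines are the 28 genes at a boundary in all 3 lists, open circles are the other genes, and black bars are the medians of 39.2, 42 and 27.7, with the dotted line at 50.

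The position of the boundary relative to the gene was similar in the 3 lists. The midpoint lay within the gene for 6, 7 and 8 genes in control, mof RNAi and stage 15. The interval overlapped the gene with its midpoint outside for 20, 21 and 18 genes, and lay wholly outside for 10, 11 and 13. A gene end lay within 1 kb of the midpoint for 24, 25 and 23 genes. That is 32.9%, 34.2% and 31.5% of the 73 genes, beside 18.5%, 17.2% and 21% of all protein-coding genes. Another protein-coding gene had an end within 2.5 kb of the same midpoint at 36 of 36, 39 of 39 and 38 of 39 boundaries. The median number of such genes was 3, 3 and 2. Since 72 of the 73 genes had a neighbour within 500 bp, these last counts could hardly have been low. The counts of position and of other genes are not set here beside those of all protein-coding genes at boundaries.

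The genes were short and closely packed. Their median length was 0.909 kb (0.39 to 13.4 kb), beside 2.15 kb for all protein-coding genes. A neighbour lay within 500 bp of 72 of the 73 genes (98.6%), beside 80.6% of all genes, and 43 overlapped a neighbour (58.9%, beside 42%). The number of other protein-coding gene ends within 5 kb had a median of 6, which was also the median of all genes. The 23 genes at a boundary in no list did not stand apart in this, since all 23 had a neighbour within 500 bp and their median length was 1 kb, beside 0.827 kb for the 28 genes in all 3 lists.

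The share at a boundary was set beside that of genes alike in length and spacing. Among genes of up to 2 kb, 34, 37 and 36 of 70 mitochondrial ribosomal protein genes were at a boundary (48.6%, 52.9% and 51.4%), and 23.8%, 22.1% and 26.3% of all protein-coding genes of that length. Among genes with a neighbour within 500 bp the shares were 50%, 54.2% and 52.8% of 72, beside 33.8%, 31.5% and 37.2% of all such genes. With 7 or fewer gene ends within 5 kb, 23, 26 and 26 of 47 were at a boundary (48.9%, 55.3% and 55.3%, beside 31.7%, 29.6% and 34.9%). With 8 or more, 13 of 26 were in each list (50%, beside 31.1%, 29.3% and 33.6%). The share was higher than that of all genes in each of these classes and lists, but with 8 or more gene ends the interval at stage 15, 32.1% to 67.9%, held the share of all such genes.

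Around a boundary, the side that held the mitochondrial ribosomal protein gene was more often than not the one with the higher gene density, the gene itself not counted. In control the median density was 2 protein-coding genes per 10 kb in the domain on the gene's side and 1.36 on the other side, and the gene's side was denser for 23 of 36 (63.9%, beside 46.9% of all genes at boundaries). After mof RNAi the densities were 1.78 and 1.33 and the gene's side was denser for 24 of 39 (61.5%, beside 46.8%). At stage 15 they were 2 and 1.48 and 23 of 39 (59%, beside 46.7%). No interval is given for these shares and the comparison genes were not matched for length, so this is a description only. The domain that held a mitochondrial ribosomal protein gene had a median size of 37.5, 40 and 32.5 kb in the 3 lists, beside 47.5, 52.5 and 42.5 kb over all protein-coding genes.

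Large and small subunit genes did not differ beyond their counting error. Of the 47 large subunit genes 23, 23 and 22 were at a boundary in control, mof RNAi and stage 15 (48.9%, 48.9% and 46.8%). Of the 26 small subunit genes the counts were 13, 16 and 17 (50%, 61.5% and 65.4%), beside the 31.6%, 29.5% and 34.5% of all protein-coding genes. At stage 15 the intervals were 33.3% to 60.8% for large and 46.2% to 80.6% for small subunit genes, which overlapped. The first of these held the 34.5% of all genes.

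On X, where MOF acts in dosage compensation of males, 6, 7 and 9 of the 11 genes were at a boundary (54.5%, 63.6% and 81.8%), beside 33.6%, 30.8% and 36.9% of all protein-coding genes of X. In control the interval for X, 28% to 78.7%, held the share of all genes of X. On the autosomes the counts were 30, 32 and 30 of 62 (48.4%, 51.6% and 48.4%, beside 31.2%, 29.3% and 34.1%). The interval for X at stage 15, 52.3% to 94.9%, overlapped that of the autosomes, 36.4% to 60.6%. In all 3 lists mRpL3, mRpL22, mRpL30, mRpL33, mRpS25 and mRpS30 were at a boundary, mRpL49 joined them after mof RNAi, and mRpL38 and mRpS14 at stage 15. mRpL14, with 4.0 kb in all 3 lists, and mRpL16, with 8.52, 8.52 and 30.3 kb, were at none.

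Among the 23 genes at a boundary in no list, some lay close to one and others deep in a domain. Those farthest by the smallest of their 3 distances were mRpL19 at 14.1 kb, mRpS35 at 13.4 kb, mRpL36 at 12.4 kb, mRpL43 at 11.0 kb and mRpL53 at 9.34 kb. The distance of mRpL43 and that of mRpL53 were the same in all 3 lists. For the other 3 it was the same in both stage 5 lists and larger at stage 15, at 31.6 kb for mRpL19, 37.9 kb for mRpS35 and 52.4 kb for mRpL36. mRpS29, the GTP-binding protein also known as DAP3 in humans, was 6.44 kb from a boundary in control, 44.2 kb after mof RNAi and 43.9 kb at stage 15.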

How the data were processed

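The authors deposited each boundary list as BED intervals with a score, whose scale they do not state; bins are 2.5 kb of dm6, per the labels and the submitters' processing notes. Aligner, boundary caller and filters: not given in the sources used here. It was assumed that each list pools the libraries of its group. File names gave the condition of both stage 5 lists. The stage 5 list named in the labels of control and mof RNAi libraries alike equals the control list and was not used separately. The 57 samples of other assays among the 70 were not analysed here.

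Gene positions came from a RefSeq table of Release 6 of the genome, which matches dm6 and holds no strand. Distances ran from the nearer annotated gene end to the nearest boundary midpoint. Bins missing from the authors' numbering of boundaries were taken as left out. Python 3.11.15, pandas 2.3.3, NumPy 2.4.6, SciPy 1.17.1 and Matplotlib 3.10.9 were used.

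The genes, comparison lists and rules were chosen with earlier results of these data known. Named are the 10 genes in all 3 lists with the lowest mean score percentile, every gene that differed between the stage 5 lists, the 10 largest changes in distance among genes that differed between control and stage 15, the 5 farthest genes, the 2 on each side of the window, all genes on X, and neighbours that share a boundary. Further names were chosen after their values were seen. DAP3, ico, mtRF1, tam and Twinkle, planned for the comparison lists, were not matched under these symbols. Alternatives were windows of 1, 5 and 10 kb, the interval edge, the most negative 50% of scores, domains without left-out bins, each boundary counted once, matching of boundaries, and other sets of comparison genes.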

Additional observations from a re-analysis of the deposited data

How the results depend on the processing

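Over 48 alternative values of the shares, medians and kept counts, 31 stayed within the counting interval or spread and 17 moved. A window of 1 kb or the 50% most negative scores could not raise a share at a boundary, and 5 or 10 kb could not lower it. The tally therefore does not measure how stable the difference from all genes was. The order of the lists was not stable: the share was higher after mof RNAi than in control as reported and at 1 kb, equal at 5 kb (64.4% each), and lower at 10 kb and with the most negative scores, and stage 15 fell below control at 1 kb. With a window of 1 kb the share at a boundary was 32.9% in control, 34.2% after mof RNAi and 31.5% at stage 15. The shares of all protein-coding genes were 18.5%, 17.2% and 21% in the same order. With 5 kb it was 64.4% in control and 71.2% at stage 15, beside 45.1% and 48.4% of all genes. With 10 kb it was 82.2%, 76.7% and 86.3% in the same order of lists, beside 63.6%, 60.5% and 67.2% of all genes. With the 50% most negative scores it was 34.2% in control and 30.1% after mof RNAi, beside 20.7% and 19.2% of all genes. The share at a boundary in all 3 lists at once was 23.3% at 1 kb, 57.5% at 5 kb and 69.9% at 10 kb. It was 23.3% with the 50% most negative scores, where 80% of control genes were also at a mof RNAi boundary. For all genes, the share in all 3 at once and the kept share were not computed under these settings. Measured to the interval's edge, the median distance was 0.886 kb after mof RNAi and 1.03 kb at stage 15; the medians of all genes were not computed this way. Among the 50 genes whose stage 5 domains had no left-out bins, 23, 24 and 25 were at a boundary in control, mof RNAi and stage 15. These shares were 46%, 48% and 50%, and those of all genes were not computed this way. Comparison genes of up to 2 kb, or with a neighbour within 500 bp, were chosen after seeing the data. No paired analysis was possible because each list pools its libraries, which also prevented leaving out replicates. Distances to transcription starts and promoter motifs were not run, since strand and sequence were not used here. Depth is unknown.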
